A study of Arabidopsis thaliana with 28 samples.

Results

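The genes described here are from dark-grown Arabidopsis thaliana seedlings treated with abscisic acid (ABA). On a log scale with 1 added to the level, they differed little from mock in the first hours and stood well below it on the later days. They numbered 227 of the 18310 genes measured. A gene was a member if its difference between ABA and mock, taken as the mean log2(RPKM + 1) of the 2 ABA libraries minus that of the 2 mock libraries, was under 0.5 in absolute size at 1 h and 4 h and at most -0.8 at both 36 h and 60 h. RPKM is the read count of a gene scaled to its length and to the size of the library. Because 1 was added before the logarithm, a weakly expressed gene could pass the early limit with a much lower level in ABA. GLIP3, for example, had 0.0921 and 0.123 RPKM in ABA and 0.483 and 0.586 RPKM in mock at 1 h. The members were thus chosen by their differences at 1, 4, 36 and 60 h, and those values are given as a description, without a test. The libraries of 8, 12 and 24 h had no part in the choice, and tests are reported for these alone.

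Whole seedlings of the wild-type accession Col-0 germinated and grew for 3 days in darkness on nylon mesh over hydroponic medium. The ABA groups then received 10 µM ABA and the mock groups the ethanol solvent, and both were collected after 1, 4, 8, 12, 24, 36 and 60 h. Each of the 14 groups had 2 libraries, 28 in all, and dark is the light condition given for every library. All groups share the genotype and the darkness, and the RNA is a mixture of root, hypocotyl and cotyledon tissue.

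ABA is the plant hormone of drought and seed dormancy. It is bound by PYR/PYL/RCAR receptors, which then inhibit PP2C phosphatases and so release SnRK2 kinases, and these phosphorylate bZIP transcription factors at ABA-responsive promoters. In young seedlings ABA is known to hold back germination, cotyledon growth and root growth. Growth of a seedling in the dark rests on cell elongation, in which aquaporins carry water into the cell and vacuole, wall enzymes loosen and rebuild the wall, and auxin, gibberellin and brassinosteroids set the pace.

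Reads recovered from the RPKM values numbered 16.3 to 26.6 M per library. Libraries with the same number and time deviated together from their group means, so counts are also given from a fit in which each ABA and mock library of a number form a pair, called the paired fit below. The labels do not say that the 2 libraries of a group came from separate cultures, and the p-values here cover only the scatter from library to library. Transcripts of a root endodermis gene and of a photosynthesis gene were both present in these dark-grown seedlings. The endodermal gene CASP1 had 117 and 64.8 RPKM in ABA and 255 and 156 RPKM in mock seedlings at 60 h. The Rubisco subunit gene RBCS3B, itself a member chosen partly by its values at 60 h, had 173 and 218 RPKM in ABA and 332 and 348 RPKM in mock at that time. In whole seedlings, fewer cells of a type and less RNA per cell cannot be told apart.

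Across the 7 times, the median difference between ABA and mock widened step by step, with its early and late ends set by the choice of members. The median over the 227 members was -0.10 at 1 h, -0.23 at 4 h, -0.40 at 8 h, -0.58 at 12 h, -0.77 at 24 h, -1.07 at 36 h and -1.08 at 60 h, while the median over all genes lay between -0.02 and 0.01 at every time. By 8 h, 25 members had passed -0.8, and 46 had at 12 h and 104 at 24 h. The share of all genes past -0.8 was not counted. Medians and counts over the set do not tell whether a single gene changed gradually or in a step. From 36 h on the medians stayed close, and 120 members were at least as low at 60 h as at 36 h. Late differences past -1 at both times were reached by 102 members and past -2 by 8. The plot of the difference over time shows both medians, with the interquartile range around each.

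**Figure D1:**
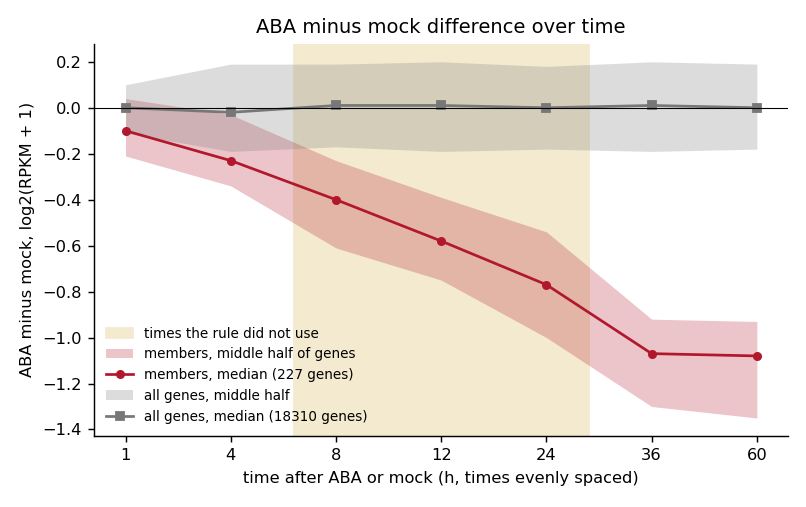
Difference between ABA and mock in log2(RPKM + 1) at 7 times (evenly spaced), as the median (line) and interquartile range (band) of the 227 members (red) and of all 18310 genes (grey). The yellow field marks 8, 12 and 24 h, which the choice of members did not use, and in it the median of the members goes through -0.40, -0.58 and -0.77.

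In the libraries that had no part in the choice, most members already had a negative difference. At 8 h, 36 members were called lower at an adjusted p under 0.05 and 0 higher, where 3.57% of all genes were called lower and 7.92% higher. At 12 h the count was 62, against a background of 4.09%, and at 24 h it was 99, against 3.88%. Again 0 members were higher, where 8.37% of all genes were at 12 h and 6.64% at 24 h. The sign was negative in 203, 220 and 226 of the 227 members at 8, 12 and 24 h, and in 49.1%, 48.7% and 49.9% of all genes. In the paired fit 94 members were lower at 8 h (background 9.46%), 144 at 12 h (11.8%) and 183 at 24 h (10.8%), and 0, 1 and 0 were higher (15.5%, 16.6% and 13.6%). The counts at the earlier times rested partly on single libraries: 36 became 21 without the first ABA library of 8 h and 17 without the second mock library of 8 h, and 62 became 31 without the second ABA library of 12 h and 39 without the first mock library of 12 h.

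All members were chosen to be low at 36 h and 60 h, so the overlap of the calls is given as a description. Of the 36 called at 8 h, 33 were called at 12 h as well and 32 at all 3 times. A further 29 were first called at 12 h and 37 first at 24 h. Only 3 members were called at 8 h or 12 h and not at 24 h, and 125 were called at none of the 3 times. Both ABA libraries lay below both mock libraries in 136 members at 8 h, 179 at 12 h and 177 at 24 h, where 21.8%, 25.4% and 20.4% of all genes had that order. In the authors' deposited table, an FDR under 0.05 with a lower level in ABA was given to 43 members at 8 h (background 3.78%), 71 at 12 h (4.22%) and 112 at 24 h (4.14%).

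The change from 8 h to 24 h was also tested within each arm. From 8 h to 24 h in ABA seedlings, 36 of the 227 members fell (background 12.4%) and 5 rose (8.86%), and the median change of the set was -0.10. The share falling in ABA was thus little above that over all genes. Over the same hours in mock seedlings, 20 members rose (background 5.51%) and 6 fell (7.37%), with a median change of 0.24. A single gene, AT4G15680, both fell in ABA seedlings and rose in mock seedlings. The paired fit gave 56 falling (18.3%) and 22 rising (16.5%) in ABA, and 61 rising (13.9%) and 10 falling (13.1%) in mock. For these changes between times its block was the library number, shared by all times. Whether the numbers match libraries across times was not tested. These counts depended on single libraries: those falling in ABA became 23 without the first ABA library of 24 h, and 18 without the second, or without the first ABA library of 8 h. Those rising in mock became 5 without the first mock library of 24 h and 0 without the first mock library of 8 h.

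Among members called, the 5 largest falls in ABA seedlings were those of CAB3, CA1, BGLU35, PSAN and AT3G28550, between -3.36 and -2.12 on the log2 scale. CAB3, CA1 and BGLU35 also fell in mock seedlings, by 2.12, 1.83 and 0.86 (adjusted p = 0.0181, 0.0251 and 0.0222). Among members called in mock seedlings, the 5 largest rises were those of MEE59, ATL8, COR27, SNRK2-8 and BGAL7, between 1.29 and 1.81. Of these, ATL8, COR27 and SNRK2-8 rose in ABA seedlings too, by 1.23, 1.47 and 0.95 (adjusted p = 0.0131, 0.0321 and 0.0101). Each of the 5 mock rises lost its call without the first mock library of 8 h, with adjusted p from 0.0785 to 0.439, and those of MEE59, COR27 and BGAL7 also without the first mock library of 24 h (adjusted p = 0.0707, 0.101 and 0.0652). COR27 lost it without the second mock library of 24 h as well (adjusted p = 0.164). The fall of PSAN was not called without the first ABA library of 8 h (adjusted p = 0.0717), nor that of AT3G28550 without that library (0.0942) or without the second of 24 h (0.0545).

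Whether the ABA effect itself grew between 8 h and 24 h was tested as the difference of the differences. It was negative in 202 of 227 members, with a median of -0.36 against -0.02 over all genes. No member passed limma's test after adjustment, and neither did any of the 18310 genes, and at an unadjusted p under 0.05 there were 40 members lower and 0 higher, where 2.07% of all genes were lower. The paired fit called 3 members, MT1C (adjusted p = 0.0266), AT4G15670 (0.0322) and AT4G15680 (0.0352), all lower with a background of 0.235%, and 0 higher (0.0928%). Over the whole course, from 1 h to 60 h, the median change of members was -0.36 in ABA and 0.68 in mock seedlings. Over all genes it was 0.02 and 0.01. Of the members, 103 were at least 0.5 lower and 51 at least 0.5 higher in ABA, against 34 lower and 130 higher in mock. The shares of all genes past 0.5 were not counted. These last values use hours that chose the members and are a description. The scatter of the changes from 8 h to 24 h shows the members called in each arm.

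**Figure D2:**
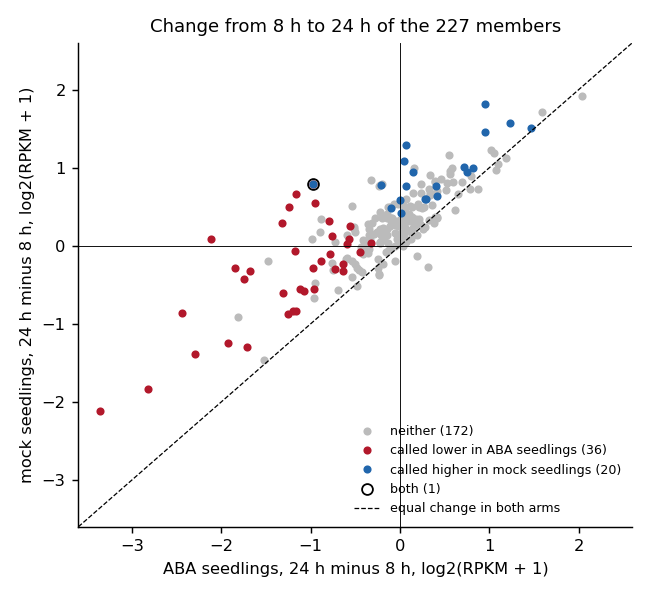
Change from 8 h to 24 h in ABA seedlings (x axis) and in mock seedlings (y axis) of the 227 members, both in log2(RPKM + 1), with the 36 called lower in ABA in red, the 20 called higher in mock in blue and the 1 called in both ringed. The dashed line marks an equal change in both arms, and 202 members lie above it.

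The largest late differences belonged to a class III peroxidase gene, AT5G64110, on chromosome 5 (25654074 to 25656067, minus strand). Class III peroxidases are secreted enzymes that cross-link or loosen cell walls with hydrogen peroxide. At 8 h it had 16.2 and 26.2 RPKM in ABA and 48.4 and 33.3 RPKM in mock seedlings. At 24 h the ABA libraries had 10 and 6.57 RPKM, against 77.7 and 41.7 RPKM in mock. By 60 h it was nearly gone from ABA seedlings, with 0.369 and 0.598 RPKM against 25.6 and 29.9 RPKM in mock, and the groups did not overlap at any of these times. The difference was -0.93 ± 0.31 (SE) at 8 h (adjusted p = 0.0601, or 0.0176 in the paired fit), -1.48 ± 0.31 at 12 h (0.00236) and -2.67 ± 0.31 at 24 h (7.49e-06). A further peroxidase gene, AT2G18980, had 1.59 and 1.54 RPKM in ABA and 8.06 and 5.48 RPKM in mock at 24 h, a difference of -1.58 ± 0.24 (adjusted p = 0.00017). Of 47 measured genes of the family, 9 were called lower and 8 higher at 24 h (3.88% and 6.64% of all genes), with a median difference of -0.07.

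MT1C, a metallothionein gene whose small cysteine-rich product binds metals such as copper, had higher values in ABA than in mock seedlings at 1 h and far lower ones at the end. It had 92.4 and 89.2 RPKM in ABA and 78.2 and 66 RPKM in mock at 1 h. At 24 h the ABA libraries had 5.4 and 11.3 RPKM and the mock libraries 37.1 and 64.8 RPKM. At 60 h there were 2.11 and 5.06 RPKM in ABA against 29.4 and 71.1 RPKM in mock. In both groups the first library was the lower one at these later times, and the groups did not overlap. The difference of -2.49 ± 0.53 at 24 h had an adjusted p of 0.0036, or 1.39e-07 in the paired fit. It lost its call without the first ABA library of 24 h (adjusted p = 0.0728) or the second mock library of 24 h (0.0598). Of 6 measured metallothionein genes, 1 was called lower at 24 h, MT1C itself, and 3 higher, against 3.88% and 6.64% of all genes.

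CDEF1, a GDSL-type cutinase known to break down cuticle, followed a similar course. It had 72.7 and 37.4 RPKM in ABA and 54.2 and 39.6 RPKM in mock at 1 h, where the groups overlapped. At 24 h it stood at 11.9 and 15.1 RPKM in ABA against 64 and 37.8 RPKM in mock, and at 60 h at 0.879 and 2.05 RPKM against 43 and 26.3 RPKM. The difference at 24 h was -1.80 ± 0.48 (adjusted p = 0.0187), and it was not called without either ABA library of 24 h (0.132 and 0.0565) or without the first mock library of 24 h (0.185).

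GDPD2, a glycerophosphodiester phosphodiesterase that splits deacylated phospholipids, was abundant, with little spread between libraries. It had 193 and 189 RPKM in ABA and 155 and 139 RPKM in mock at 1 h, 71.9 and 93.6 RPKM against 261 and 250 RPKM at 24 h, and 35.1 and 37.5 RPKM against 157 and 156 RPKM at 60 h. The order of the groups turned round between 1 h and 8 h, without overlap at either end. The difference was already -1.02 ± 0.16 at 8 h (adjusted p = 0.00014) and reached -1.63 ± 0.16 at 24 h (8.05e-07). AT3G19390, a papain-type cysteine protease with a granulin repeat, stayed near one level in ABA seedlings while its mock values were higher later: 26.6 and 23.6 RPKM in ABA against 121 and 76.6 RPKM in mock at 24 h, after 25.4 and 34.9 RPKM against 47.4 and 67.1 RPKM at 8 h. Its difference at 24 h was -1.90 ± 0.25 (adjusted p = 3.31e-05), and its rise from 8 h to 24 h in mock, 0.76 ± 0.25, was not called (0.054) but passed in the paired fit (0.0326).

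**Figure D3:**
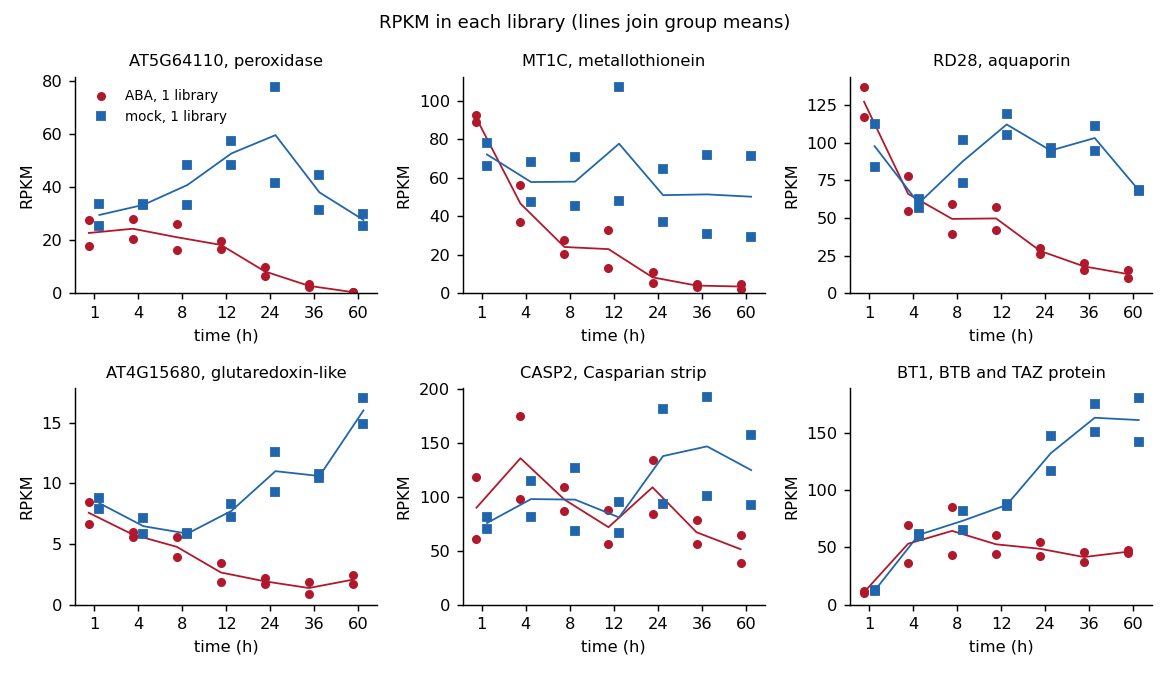
RPKM of 6 members in each library at 7 times (evenly spaced), ABA in red circles to the left and mock in blue squares to the right, with lines through the group means. At 60 h the ABA libraries of AT5G64110 had 0.369 and 0.598 RPKM against 25.6 and 29.9 RPKM in mock, and BT1 had 47.4 and 45.2 RPKM against 180 and 142 RPKM.

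Glutaredoxin-like genes were the densest group in one place. Of 12 measured genes with the annotation of plant type II glutaredoxin-like proteins, 6 were members, a list drawn up after the values were seen. Such CC-type glutaredoxins are small thiol proteins of land plants that act in redox control and with TGA transcription factors. Of the 6 members, AT4G15660, AT4G15670, AT4G15680, AT4G15690 and AT4G15700 stand next to each other on the plus strand of chromosome 4, from 8925571 to 8938124. They make up 4 of the 9 pairs of adjacent members found in the whole set. The stretches just upstream are shown because all 5 hold the same run of 11 bases, TTAGCTGCAAG, in capitals below. It was found by a search for shared runs in the 250 bases before each gene start, on the strand of the gene, and only these 5 of 18220 such windows hold it (0.0274%). The run begins 47, 150, 152, 242 and 233 bases before the annotated start of the gene, in the order of the loci. Sequences are from build TAIR10.1, plus strand, 5′ to 3′, and a shared run among tandem copies is a description of the sequence, not of a site. The stretches lie at chr4:8925504-8925570, chr4:8928861-8928951, chr4:8931445-8931535, chr4:8934046-8934124 and chr4:8937108-8937195.
AT4G15660: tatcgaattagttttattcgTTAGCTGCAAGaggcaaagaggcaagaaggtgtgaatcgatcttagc
AT4G15670: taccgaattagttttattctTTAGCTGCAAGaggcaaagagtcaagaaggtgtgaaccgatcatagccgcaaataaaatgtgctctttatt
AT4G15680: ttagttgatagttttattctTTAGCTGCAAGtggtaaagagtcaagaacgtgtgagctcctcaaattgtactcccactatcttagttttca
AT4G15690: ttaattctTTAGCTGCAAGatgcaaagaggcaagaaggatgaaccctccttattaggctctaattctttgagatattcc
AT4G15700: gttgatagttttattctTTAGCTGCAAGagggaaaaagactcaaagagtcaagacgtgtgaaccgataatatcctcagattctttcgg

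None of the 5 tandem genes was called at 8 h, and their differences at 24 h ran to different depths. AT4G15680 had 2.17 and 1.69 RPKM in ABA and 9.3 and 12.6 RPKM in mock at 24 h, and 3.94 and 5.59 RPKM against 5.88 and 5.85 RPKM at 8 h. In ABA seedlings it fell by 0.97 ± 0.22 from 8 h to 24 h (adjusted p = 0.00638) and in mock seedlings it rose by 0.79 ± 0.22 (0.0294), so that the difference at 24 h was -2.02 ± 0.22 (4.69e-06). AT4G15660 had 0.425 and 0.616 RPKM in ABA against 4.65 and 6.42 RPKM in mock at 24 h, a difference of -2.09 ± 0.30 (adjusted p = 8.49e-05), and at 60 h its ABA libraries lay far apart, at 0.637 and 3.31 RPKM, below the 11.9 and 11.4 RPKM of mock. AT4G15670 was lower by -1.67 ± 0.31 at 24 h (adjusted p = 0.00114). The 2 genes at the far end had the smallest differences: AT4G15700 had 4.19 and 5.08 RPKM in ABA against 8.45 and 12 RPKM in mock at 24 h (-0.98 ± 0.20, adjusted p = 0.003), and AT4G15690 had 2.33 and 7.89 RPKM against 6.68 and 17.2 RPKM, which overlapped (-1.12 ± 0.51, adjusted p = 0.222, or 0.000576 in the paired fit). These neighbours are similar in sequence, but at most 4.74% of the 50-base windows of their exons occur elsewhere in the genome.

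The sixth glutaredoxin-like member, AT3G62950 on chromosome 3, was weaker, with 2.82 and 6.5 RPKM in ABA against 5.65 and 9.03 RPKM in mock at 24 h. Its groups overlapped there, and its difference of -0.61 ± 0.40 was not called (adjusted p = 0.463, or 0.00485 in the paired fit). Of the 6 members, 0 were called at 8 h, 2 at 12 h and 4 at 24 h, against 36, 62 and 99 of all 227 members. The other 6 measured genes missed the limits of the set. ROXY2 was at -1.15 by 4 h and at -1.53 at 60 h, and AT4G33040 stood 0.23 above mock at 1 h and 1.45 above it at 60 h.

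Aquaporins supplied 4 members: the plasma membrane channels RD28, also called PIP2;3, and PIP1;5, and the vacuolar channels GAMMA-TIP and DELTA-TIP. RD28 had 117 and 137 RPKM in ABA and 83.5 and 112 RPKM in mock at 1 h, 26.2 and 30.2 RPKM against 96.5 and 92.9 RPKM at 24 h, and 10 and 15.6 RPKM against 68.7 and 68 RPKM at 60 h. All ABA libraries were above all mock libraries at 1 h, and all were below from 8 h. It was called at 8 h (-0.82 ± 0.24, adjusted p = 0.0314), 12 h (-1.17 ± 0.24, 0.00214) and 24 h (-1.71 ± 0.24, 6.74e-05). DELTA-TIP had the second highest late mock level of all members, with 1200 and 1088 RPKM in ABA and 2368 and 2470 RPKM in mock at 60 h, and its difference of -0.69 ± 0.23 at 24 h was not called (adjusted p = 0.0657, or 0.026 in the paired fit). GAMMA-TIP was called at 12 h (-0.59 ± 0.18, adjusted p = 0.0355) and 24 h (-0.66 ± 0.18, 0.019). PIP1;5 stood between -0.79 and -0.75 at 8, 12 and 24 h and passed the threshold only in the paired fit (adjusted p = 0.0118 to 0.0158).

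Aquaporins as a whole moved in both directions. Of 29 measured, 6 were called lower and 2 higher at 24 h, against 3.88% and 6.64% of all genes. The median difference was -0.50 there, where all genes had 0.00. Several abundant channels fell just short of the limits of the set, such as PIP1C with -0.79 at 36 h and -0.81 at 60 h, and PIP2A, which was 0.57 above mock at 4 h. The seed-type vacuolar channels TIP3;1 and BETA-TIP were higher with ABA, by 3.68 (adjusted p = 0.000223) and 1.65 (0.00334) at 24 h. Of the exon windows of RD28, 16.5% occur elsewhere in the genome, so part of its reads may be those of its close relatives.

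Casparian strip genes of the set stood near their mock level at 24 h and, by the choice of members, well below it at 36 h. The Casparian strip is the ring of lignin that seals the cell walls of the root endodermis, CASP proteins mark the membrane domain beneath it, and ESB1, a dirigent-like protein, and peroxidases lay the lignin down. CASP2, CASP4, ESB1 and AT5G66390, which encodes peroxidase 72, were members, 4 of 8 genes of a list drawn up after the values were seen. At 24 h CASP2 had 134 and 84 RPKM in ABA and 182 and 93.7 RPKM in mock seedlings, and the groups overlapped. At 60 h it had 64.6 and 38.5 RPKM in ABA and 158 and 92.6 RPKM in mock, without overlap. ESB1 had 115 and 89.3 RPKM in ABA against 128 and 92.7 RPKM in mock at 24 h, and 67.4 and 57.9 RPKM against 190 and 133 RPKM at 60 h.

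None of the 4 genes was called at 8, 12 or 24 h, neither without nor with pairing, and their median difference was 0.02 at 8 h, -0.19 at 12 h, -0.24 at 24 h, -1.02 at 36 h and -1.31 at 60 h. The whole set stood at -0.77 at 24 h. At 4 h these 4 were 0.31 to 0.43 above mock. The 4 genes of the list left out of the set lay close to its limits: CASP1 was at 0.50, -0.79 and -1.19 at 4, 36 and 60 h, PER64 at 0.51, -0.87 and -0.88, MYB36, the transcription factor that switches this set of genes on, at 0.47, -0.61 and -0.61, and CASP5 at 0.79, -0.60 and -0.71. Of 12 genes of the wider list of endodermal barrier genes, which adds suberin enzymes, 0 were called lower and 5 higher at 24 h. Over all genes the shares were 3.88% and 6.64%, and none of those 5 was a member. Panels for 4 gene groups show the differences of their members at each time. The values at 36 h and 60 h were bound by the choice of members, and the change from 24 h to 36 h was not tested.

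**Figure D4:**
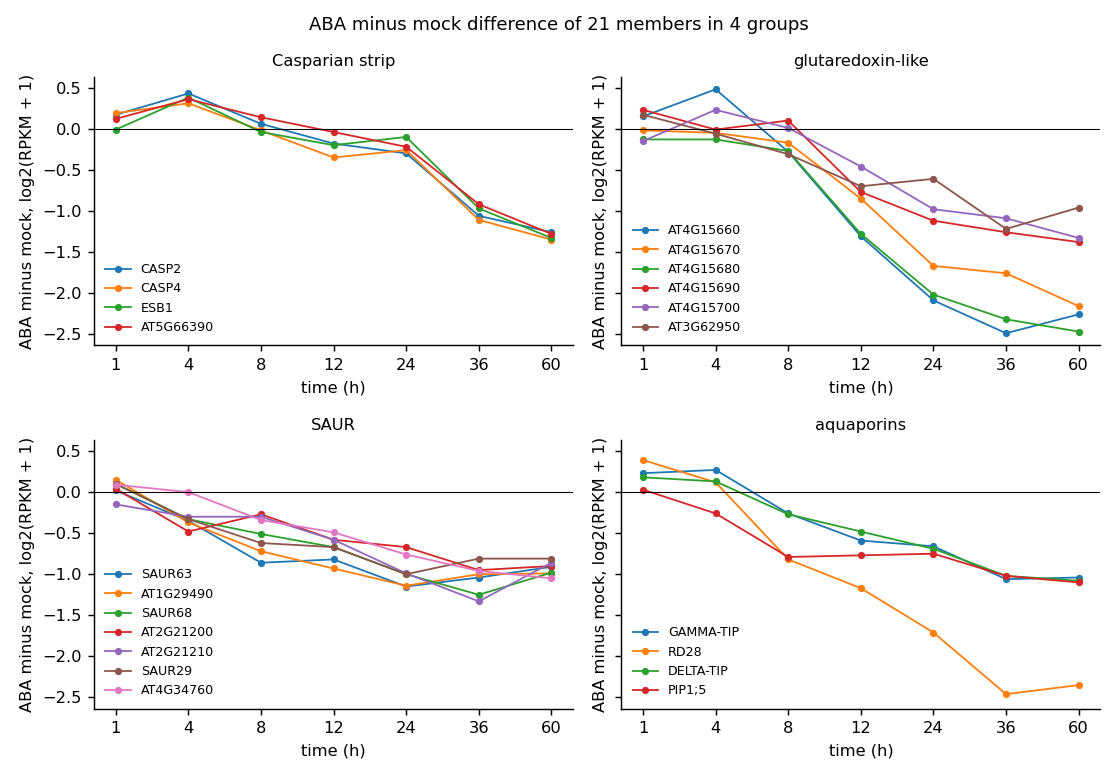
Difference between ABA and mock in log2(RPKM + 1) at 7 times (evenly spaced) of 21 members in 4 groups, 1 line a gene. The Casparian strip genes lay between -0.30 and -0.10 at 24 h and at -0.92 or lower at 36 h, where the choice of members set a limit of -0.8. Called lower at 24 h were 4 of the 6 glutaredoxin-like genes and 4 of the 7 SAUR genes, against 99 of all 227 members.

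Auxin-related members were mostly SAUR genes, whose small proteins promote cell expansion by activating the proton pump of the plasma membrane. Of 51 measured SAUR genes, 7 were members, and 0, 1 and 4 of these 7 were called at 8, 12 and 24 h. Of all 227 members, 36, 62 and 99 were called at these times. AT1G29490 had 1.63 and 1.97 RPKM in ABA against 4.54 and 5.8 RPKM in mock at 24 h, a difference of -1.14 ± 0.29 (adjusted p = 0.0128). AT2G21210 had 12 and 12.1 RPKM in ABA against 27.3 and 23 RPKM in mock (-0.99 ± 0.22, adjusted p = 0.00448), and AT4G34760 had 65.4 and 57.6 RPKM against 120 and 91.4 RPKM (-0.76 ± 0.23, 0.0366). The groups were apart in all of these. In both arms the level of SAUR63 was lower at 24 h, 4.9 and 5.08 RPKM in ABA and 9.36 and 16.2 RPKM in mock, than at 8 h, 9.99 and 11.4 RPKM in ABA and 20.3 and 20.2 RPKM in mock, though neither change was called (adjusted p = 0.057 in ABA, or 0.0374 in the paired fit, and 0.202 in mock). Its difference at 24 h was -1.15 ± 0.35 (adjusted p = 0.0402), but 27.1% of its exon windows, and 33.9% of those of SAUR68, occur elsewhere in the genome. Over the 51 genes, 10 were called lower and 3 higher at 24 h, against 3.88% and 6.64% of all genes. GH3.17, which conjugates auxin to glutamate, had 18.7 and 11.8 RPKM in ABA against 43.6 and 28.4 RPKM in mock at 60 h and was not called at 24 h (-0.53 ± 0.25, adjusted p = 0.237, or 0.00961 in the paired fit).

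ARR6 and RGF9, regulators of cytokinin signalling and of the root meristem, were among the 5 largest differences of members called at 8 h. ARR6, a type-A response regulator that dampens cytokinin signalling and is itself induced by it, had 3.88 and 3.8 RPKM in ABA against 10.6 and 7.64 RPKM in mock at 8 h. Its difference of -1.05 ± 0.25 there (adjusted p = 0.00797) went on to -1.31 ± 0.25 at 24 h (0.00133), although the 8 h call was lost without the second ABA library (0.0562) or the first mock library (0.12) of that time. RGF9, which encodes a secreted peptide of the root meristem growth factor family, had the largest difference at 8 h, with 9.05 and 5.42 RPKM in ABA against 21 and 19.5 RPKM in mock (-1.40 ± 0.37, adjusted p = 0.017). That call was lost without the second ABA library (0.217), the first mock library (0.101) or the second mock library (0.0756) of 8 h. Its relative RGF6 was abundant, with 102 and 64.2 RPKM in ABA against 217 and 112 RPKM in mock at 24 h, and was called only in the paired fit (-0.94 ± 0.46, adjusted p = 0.259 without and 0.000646 with pairing).

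PRE1, a small helix-loop-helix protein that promotes cell elongation downstream of gibberellin and brassinosteroid, was called at all 3 times. It had 15.1 and 15.9 RPKM in ABA against 30.6 and 31.7 RPKM in mock at 8 h, and 10.1 and 9.07 RPKM against 26.3 and 23.3 RPKM at 24 h. The 2 libraries of each group were close and the groups were apart, with differences of -0.96 ± 0.21 (adjusted p = 0.00349) and -1.29 ± 0.21 (0.000281). BRL2, a vascular receptor kinase related to the brassinosteroid receptor, was called at 12 h (-0.63 ± 0.16, adjusted p = 0.00857) and 24 h (-0.54 ± 0.16, 0.0306).

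The transcription factor list, made by words of the annotation, held 11 members with PRE1, of 692 measured genes (1.6%), where the whole set was 227 of 18310 genes. It missed others, such as BEE1, RAV1, LBD13, bZIP3 and bZIP6. The gene bZIP6, named after its values were seen, was called at 8, 12 and 24 h as PRE1 was, with 0.753 and 0.688 RPKM in ABA against 3.34 and 2.53 RPKM in mock at 24 h (-1.19 ± 0.14, adjusted p = 1.33e-05). At 24 h WRKY9 (-0.92 ± 0.21, adjusted p = 0.00665) and the ERF-type gene AT4G13620 (-1.15 ± 0.23, 0.00204) were called lower. MYB92, a regulator of suberin genes in the root, had 4.65 and 3.08 RPKM in ABA against 9.57 and 5.35 RPKM in mock at 24 h and was called in the paired fit alone (adjusted p = 0.211 without and 0.00164 with pairing). PI, known as a floral organ identity gene, had 2 and 3.86 RPKM in ABA against 16.6 and 13.8 RPKM in mock at 60 h, and was not called at 24 h (-0.95 ± 0.34, adjusted p = 0.0899, or 0.0116 in the paired fit). The bHLH genes AT1G05805, AT4G25410 and AT5G51780, the GRAS gene AT5G19970, ERF53 and P1R1 had differences between -1.0 and -0.37 at 24 h and were not called, though all but ERF53 were in the paired fit (adjusted p = 9.37e-05 to 0.0354).

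Parts of the ABA pathway itself were in the set. RCAR3, one of the ABA receptors and also known as PYL8, had 64.1 and 105 RPKM in ABA against 99.6 and 188 RPKM in mock at 24 h, where the groups overlapped (-0.73 ± 0.36, adjusted p = 0.268, or 0.00594 in the paired fit). SNRK2-8, a kinase of the SnRK2 family, had 8.2 and 12.5 RPKM in ABA and 8.46 and 10.5 RPKM in mock at 8 h. At 60 h it had 25.4 and 35.3 RPKM in ABA and 82.1 and 83.4 RPKM in mock, so the arms overlapped at 8 h and were far apart at 60 h. Its difference at 24 h was -0.41 ± 0.24 (adjusted p = 0.373, or 0.0319 in the paired fit). Among 33 measured genes of ABA receptors and core signalling, 3 were called lower and 16 higher at 24 h, against 3.88% and 6.64% of all genes. Neither RCAR3 nor SNRK2-8 was among the 3.

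Receptor-like kinases held 6 members, most of them at low levels. Called at 8, 12 and 24 h alike were AT1G07560, AT2G28990 and AT5G59260, with differences at 24 h of -0.82 ± 0.15, -0.77 ± 0.16 and -0.83 ± 0.16 (adjusted p = 0.00116, 0.00357 and 0.00141). AT5G59260, a lectin receptor kinase, had 0.901 and 0.922 RPKM in ABA against 2.58 and 2.22 RPKM in mock at 24 h. Adding 1 before the logarithm makes such differences smaller than the ratio of the levels. AT1G51860 was called at 24 h only (-0.87 ± 0.18, adjusted p = 0.00323), and, in the paired fit alone, RKL1 at 12 h and 24 h (adjusted p = 0.00546 and 0.00173) and AT5G10530 at 24 h (0.0178). Over the 247 measured genes with such annotations, 35 were called lower and 6 higher at 24 h, against 3.88% and 6.64% of all genes.

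Other genes with early or deep differences were of mixed kind. AT5G60530, annotated as related to late embryogenesis abundant proteins, had 0.99 and 0.77 RPKM in ABA against 3.66 and 3.42 RPKM in mock at 8 h, and 0.0629 and 0.122 RPKM against 3.23 and 3.2 RPKM at 24 h (-1.95 ± 0.22, adjusted p = 6.32e-06). AT1G31950, of the terpene cyclase family, was near mock at 8 h, with 2.81 and 1.95 RPKM against 2.67 and 3.57 RPKM. It then fell by 1.32 ± 0.23 in ABA seedlings (adjusted p = 0.000983), to 0.265 and 0.427 RPKM against 3.77 and 4.28 RPKM in mock at 24 h (-1.90 ± 0.23, 1.31e-05).

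AT4G08360, annotated with a KOW domain, was hardly detected in either arm at 1 h and was gained late by mock seedlings. It had 0.704 and 1.36 RPKM in ABA against 2.06 and 2.01 RPKM in mock at 24 h (-0.60 ± 0.18, adjusted p = 0.0354), and 1.27 and 0.646 RPKM against 12.8 and 10 RPKM at 60 h. The early calls of AT5G20790 and of the oxygenase gene AT2G30840, -1.22 ± 0.35 (adjusted p = 0.0253) and -1.04 ± 0.21 (0.00235) at 8 h, were lost without a single library. AT5G20790 was not called without the second ABA library (0.263) or the first mock library (0.255) of that time, nor AT2G30840 without the first ABA library (0.0571).

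Several cell wall families held members, and these families moved in both directions. Members were 4.2% of xyloglucan endotransglucosylase genes, 3.8% of pectin-modifying genes and 2.0% each of the extensin and glycosyl hydrolase lists below. The whole set was 227 of 18310 genes, and the lists of expansins and of cellulose and hemicellulose synthesis held no member. At 24 h, where 3.88% of all genes were called lower and 6.64% higher, 1 of 24 measured xyloglucan endotransglucosylase genes was lower and 5 higher. Of 201 extensin, proline-rich or arabinogalactan genes, 6 were lower and 15 higher, and of 299 other glycosyl hydrolases and transferases 18 and 41. Of 104 pectin-modifying genes, 18 were lower and 2 higher. XTH4, which cuts and rejoins xyloglucan chains of the wall, had 511 and 362 RPKM in ABA and 838 and 826 RPKM in mock at 60 h. It was not called at 24 h (-0.60 ± 0.23, adjusted p = 0.133, or 0.0268 in the paired fit). BGAL7, a beta-galactosidase, had 12.8 and 13.7 RPKM in ABA and 38.2 and 33.2 RPKM in mock at 24 h, without overlap, and 9.02 and 17.5 RPKM against 12.3 and 16 RPKM at 8 h, with overlap. The difference at 24 h was -1.36 ± 0.26 (adjusted p = 0.00147). The pectin-modifying members AT4G19420, PME5 and AT5G62340 were called at 24 h, at -0.77 ± 0.16 (adjusted p = 0.00346), -1.01 ± 0.31 (0.0412) and -1.41 ± 0.31 (0.00421). AT2G33160, a polygalacturonase, was near 0 in both arms at 24 h, with 0 and 0.052 RPKM in ABA and 0.206 and 0.194 RPKM in mock. At 60 h it had 0 and 0.813 RPKM against 2.99 and 3.97 RPKM.

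AT3G28550, of the extensin family of wall glycoproteins, had 23.1 and 17.2 RPKM in ABA against 15.6 and 14.9 RPKM in mock at 8 h, and 4.06 and 3.57 RPKM against 27.6 and 9.5 RPKM at 24 h. Its difference at 24 h was -1.85 ± 0.51 (adjusted p = 0.0227) and was not called without either ABA library (0.0895 and 0.12) or the first mock library of 24 h (0.305), or with 0.1 in place of 1 added before the logarithm (0.0698), and 24.1% of its exon windows occur elsewhere. LRX2, AGP4 and FLA9, a wall protein of the root hair list and a pair of arabinogalactan proteins, differed at 24 h by library number more than by treatment. AGP4 had 1028 and 531 RPKM in ABA and 2542 and 670 RPKM in mock at 24 h, so that the groups overlapped, and none of the 3 was called at 24 h without pairing (adjusted p = 0.463 to 0.635), whereas all were in the paired fit (0.00681 to 0.0466).

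Photosynthetic members had lower levels at 24 h than at 8 h in both arms. Of 68 measured genes of light harvesting, photosystems and Rubisco, 4 were members, CAB3, LHB1B1, PSAN and RBCS3B. RBCS3B, a small subunit of Rubisco, had 358 and 578 RPKM in ABA and 836 and 990 RPKM in mock at 24 h. At 8 h it had 1985 and 1125 RPKM in ABA and 2367 and 2134 RPKM in mock. It fell by 1.71 ± 0.27 in ABA (adjusted p = 0.000417) and by 1.30 ± 0.27 in mock (0.00723), and it was the only one of the 4 called lower with ABA at 24 h (-1.0 ± 0.27, 0.019), while PSAN (0.00591) and CAB3 were as well in the paired fit. Of the exon windows of RBCS3B, 16.5% occur elsewhere in the genome, as do 13.7% of those of LHB1B1 and 10.6% of those of CAB3.

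CAB3, a chlorophyll-binding protein of the antenna, had 61.6 and 84.4 RPKM in ABA against 183 and 278 RPKM in mock at 24 h, apart from each other but not called (-1.63 ± 0.54, adjusted p = 0.0625, or 0.00816 in the paired fit). It fell by 3.36 ± 0.54 from 8 h to 24 h in ABA (adjusted p = 0.000499) and by 2.12 ± 0.54 in mock (0.0181). PSAN, of photosystem I, fell in ABA (-2.30 ± 0.49, adjusted p = 0.00364) and, in the paired fit alone, in mock (-1.39 ± 0.49, 0.0651 without and 0.0273 with pairing). LHB1B1, an antenna protein, was called in neither arm (adjusted p = 0.121 in ABA and 0.16 in mock) except with pairing (0.0318 and 0.0452). The carbonic anhydrases CA1 and CA2, which convert carbon dioxide and bicarbonate, were members as well. CA1 fell by 2.82 ± 0.50 in ABA (adjusted p = 0.00105) and by 1.83 ± 0.50 in mock (0.0251). CA2, the member with the highest late level, had 1786 and 2787 RPKM in ABA against 2688 and 3687 RPKM in mock at 24 h, and its change from 8 h was 0.56 ± 0.41 in ABA (0.344) and 0.96 ± 0.41 in mock (0.126, or 0.00924 in the paired fit). BGLU35, of the beta-glucosidase family, fell by 2.44 ± 0.23 in ABA (adjusted p = 1.94e-05), to 0.658 and 0.696 RPKM at 24 h against 3.32 and 5 RPKM in mock, and 23.3% of its exon windows occur elsewhere.

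The shares of members in the protease and transporter lists lay on both sides of the share over all genes, 227 of 18310. Members were 4 of 349 measured genes of proteases and inhibitors (1.1%). They were 1 of 147 nutrient and ion transporters (0.7%) and 3 of 190 ABC and other transporters (1.6%), with NRT1.9 in both lists. GGT1, a gamma-glutamyl transpeptidase that acts on glutathione outside the cell, had 10.8 and 7.35 RPKM in ABA against 31.7 and 19.2 RPKM in mock at 24 h, without overlap. It was called at 8 h (-0.85 ± 0.24, adjusted p = 0.0268), 12 h (-1.07 ± 0.24, 0.0045) and 24 h (-1.38 ± 0.24, 0.000646). The serine carboxypeptidase-like gene scpl1 was called at 12 h and 24 h, with 1.97 and 1.73 RPKM in ABA against 7.07 and 5.53 RPKM in mock at 24 h (-1.35 ± 0.30, adjusted p = 0.00494), and at 8 h too in the paired fit (0.00443). At 24 h SCPL13 was called in the paired fit alone (adjusted p = 0.509 without and 0.0277 with pairing). Of the exon windows of scpl1, 21.6% occur elsewhere in the genome, and of those of the defensin-like gene AT3G59930 22.2%. Of the NRT1/PTR-type carriers, AT3G45700 fell in both arms from 8 h to 24 h and was lower with ABA at 24 h (-0.86 ± 0.22, adjusted p = 0.0126), and NRT1.9, a nitrate transporter of the root phloem, was not called at 24 h (-0.43 ± 0.18, 0.155). NRT1.9 had 9.18 and 6.1 RPKM in ABA against 19.9 and 18.5 RPKM in mock at 60 h. The cytochrome P450 gene CYP705A18 was called at 8 h (-0.53 ± 0.17, adjusted p = 0.048) and not at 24 h (0.175). UGT71C1, BGAL1, AT5G67390, UMAMIT34, the ribosomal protein gene AT2G40010, AT3G59930 and the auxin canalization gene AT5G57770 had differences between -1.30 and -0.44 at 24 h, none of them called (adjusted p = 0.124 to 0.306). In the paired fit all of these but UMAMIT34 were called (adjusted p = 0.000364 to 0.0483).

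The 10 highest late mock levels belonged to CA2, DELTA-TIP, AGP4, ACT8, AT1G62480, XTH4, GRF6, UGE1, FLA9 and MEE59. ACT8, an actin of vegetative tissue, had 591 and 726 RPKM in ABA against 1054 and 1241 RPKM in mock at 60 h, just inside the limit of the set, and its mock level was higher than at 1 h, 542 and 577 RPKM, while the ABA level was 593 and 476 RPKM at 1 h. Of the 10, AT1G62480, annotated as a vacuolar calcium-binding protein, was alone in being called at 24 h (-0.98 ± 0.30, adjusted p = 0.0447), whereas in the paired fit only CA2 and UGE1 were not. UGE1, which makes UDP-galactose for wall polymers, had 276 and 526 RPKM in ABA against 379 and 681 RPKM in mock at 24 h, with overlap, and 333 and 714 RPKM against 772 and 1027 RPKM at 60 h.

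Levels over the set covered a wide range. The mean mock level had a median of 15.4 RPKM, against 11.7 RPKM over all genes, and ran from 0.513 to 2294 RPKM, with 69 members under 5 RPKM. Of the 227 members, 209 reached a mean of 1 RPKM over all libraries, and 30 of 6356 values, in 9 members, were 0. A gene on the opposite strand overlaps 59 members, CDEF1, ARR6, RGF6, SAUR63, WRKY9, DELTA-TIP, ESB1, SNRK2-8, PSAN, UGE1, AGP4, MEE59 and AT5G59260 among them, and as the use of strand in counting is not given, their values may hold reads of the overlapping gene. No member came from the lists of cell cycle and DNA replication, histones, microtubule motors, expansins, glutathione S-transferases, flavonoid synthesis, lipid transfer proteins, root meristem or stomatal lineage, nor from cellulose and hemicellulose synthesis. These lists held 7 to 82 measured genes, and the set is 227 of 18310, so an empty list says little. The member CYCP2;1, with a cyclin symbol, was not in the cell cycle list. In the 250 bases before the gene start, counted on both strands, the core of the ABA-responsive element, ACGTG, stood in 22.9% of members and 24.1% of the 18220 genes searched, and the G-box CACGTG, which contains that core, in 4.4% and 7.8%. The site II element TGGGCC stood in 4.8% of members and 17.0% of all genes, and TATAAA in 52.4% and 46.0%.

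The limits of the set cut through a continuum. At 36 h the members closest to the limit were AT1G05805 (-0.802), UGE1 (-0.803) and ELF5A-1 (-0.805), and the nearest genes outside were LAC3 and AT5G44020 (both -0.794) and PIP1C (-0.793). At 60 h ETFQO (-0.801), ACT8 (-0.803) and FLA9 (-0.804) were just inside and AT5G18030 and BCDH BETA1 (both -0.796) and ASL1 (-0.794) just outside. At 4 h AT4G36640 (-0.498), ZFP3 and AGT2 (both -0.496) were just inside and AT2G24580 (-0.505), AT1G23205 and PER64 (both 0.505) just outside. At 1 h ZFP3 (-0.479), AT4G13620 (0.479) and NRT1.9 (-0.470) were nearest on the inside and AT5G14880 (-0.502), AT3G01190 (-0.503) and AT5G48110 (-0.544) on the outside. Genes that failed a single limit numbered 13 for 1 h, 210 for 4 h, 86 for 36 h and 118 for 60 h.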

How the data were processed

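Poly(A) RNA of 28 libraries was prepared with a kit that keeps strand and sequenced on an Illumina instrument, per the labels' protocols. The deposited table gave RPKM for 18310 genes, and the authors' own log2 fold changes of ABA against mock with FDR, an adjusted p-value, per the file headers. HTSeq 0.5.4, edgeR 3.6.2 and build TAIR10 are named, without roles, in the submitters' processing notes. The aligner, and whether counting used strand, are not given in the sources used here: 59 members overlap a gene on the opposite strand and 10 one on the same strand, and their values are uncertain. All 512680 RPKM values were whole multiples of 1 read within 0.01 reads, so depth was recovered from them (16.3 to 26.6 M reads, median 20.5 M, in the listed genes). The first field of each line held the gene identifier and the first RPKM value, and was split.

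The members, gene lists and tests were chosen with earlier results of these data known, and some lists (glutaredoxin-like, SAUR, Casparian strip, metallothionein, BTB and TAZ, and those of the closing observations) after the members' values were seen. Genes that entered a list through an unrelated synonym were taken out of the peroxidase, aquaporin, photosynthesis and ABA signalling lists. One item of the endodermal lists is not reported here.

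log2(RPKM + 1) was fitted with limma 3.58.1 in R 4.3.3, with a mean for each of 14 groups and an intensity trend. The fit had 14 residual degrees of freedom, raised to 17.7 by the prior. Tests were two-sided, with Benjamini-Hochberg adjustment over 18310 genes. The median standard error at 24 h was 0.26 for members and 0.19 for all genes. Deviations from the group means of same-numbered ABA and mock libraries correlated across genes with Pearson's r of 0.490, 0.596, 0.429, 0.723, 0.736, 0.685 and 0.683 at the 7 times, so the numbers pair the libraries, as judged from the data. The paired fit had a block for each pair (7 residual degrees of freedom), or for the library number in contrasts between times.

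Genes were named by rule: the 10 lowest mean late differences, the 10 largest differences at 24 h among members called there with groups apart, the 10 highest late mock levels, the 5 largest among members called at 8 h, the 5 largest falls in ABA and rises in mock among members called there, members in the functional lists, and 3 genes on each side of every limit. Positions, upstream windows (250 bases) and exon windows (50 bases, either strand) came from the NCBI annotation and genome of TAIR10.1, whose nuclear coordinates are those of TAIR10, and all 227 members matched by locus. The fit was tested on simulated data. Alternatives were other pseudocounts, a filter on low values, quantile normalization, a fit to 12 libraries, the paired fit, each library left out, other limits of the set, and, added after the data were seen, voom on the recovered reads.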

Additional observations from a re-analysis of the deposited data

How the results depend on the processing

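Counts of called members kept to within 1.5 times under the other pseudocounts, the filter, quantile normalization and voom on recovered reads. Voom, added after the data were seen, gave 50 at 8 h, 80 at 12 h, 106 at 24 h, 33 falling in ABA, 15 rising in mock and 0 for the difference of effects. With the replicate block, which pairs libraries of a number, they moved to 94 at 8 h, 144 at 12 h, 183 at 24 h, 56 falling in ABA, 61 rising in mock and 3 for the difference of effects. Fitting the 12 libraries of 8 to 24 h alone left 8 rising in mock. Leaving out 1 library at a time gave 17 to 25 at 8 h, 31 to 58 at 12 h, 67 to 78 at 24 h, 18 to 27 falling in ABA, 0 to 24 rising in mock (0 without the first mock library of 8 h) and 0 to 0 for the difference of effects; all values at 24 h stayed within 1.5 times. The set had 102 members with a late limit of -1, 436 with -0.6, 111 with an early limit of 0.3, 253 (175 shared) and 252 (202 shared) with pseudocounts of 0.1 and 0.5, 216 (189 shared) after quantile normalization, and 191 to 236 with 1 library left out. For 25 called values of single genes, 266 of 300 values under alternatives kept direction and call, 34 lost the call, 28 of them with a library left out, and 0 reversed. The other 6 were AT3G28550 at 24 h, RGF9 and AT5G20790 at 8 h with a pseudocount of 0.1 (adjusted p = 0.0698, 0.168 and 0.0855), and AT5G20790 at 8 h, ATL8 and COR27 in mock in the 12-library fit (0.0763, 0.0522 and 0.0828). The causes were not tested. Count models (edgeR and DESeq2), listed as alternatives, were not run, since the values were deposited as RPKM, and voom on the reads recovered from them was run in their place. Single-gene precision is limited by the 2 libraries of each group.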

Other observations

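Nitrate and sugar genes also stood in the set, and these genes, with the lists of BTB and TAZ and of SWEET genes, were chosen after their values were seen. BT1, BT2 and BT5, which encode proteins with BTB and TAZ domains known to respond to nitrate and sugars, were 3 of 4 such genes measured. BT1 had 42.9 and 54.8 RPKM in ABA against 117 and 147 RPKM in mock seedlings at 24 h, with the groups apart (-1.41 ± 0.28, adjusted p = 0.00197). BT2 and BT5 had differences of -0.60 ± 0.30 and -0.65 ± 0.30 at 24 h and were not called (adjusted p = 0.283 and 0.225, or 0.0257 and 0.0535 in the paired fit). The fourth, BT4, was 0.95 above mock at 24 h, also not called (adjusted p = 0.227). NIA1, a nitrate reductase, had 90.4 and 80.3 RPKM in ABA against 165 and 148 RPKM in mock at 24 h and 53.2 and 27.5 RPKM against 140 and 85.6 RPKM at 60 h. Its difference of -0.86 ± 0.35 at 24 h passed only in the paired fit (adjusted p = 0.144 without and 0.004 with pairing). NLA, a ubiquitin ligase of the nitrogen and phosphate response, had 27.9 and 35.9 RPKM in ABA against 79.7 and 78.1 RPKM in mock at 60 h (-0.73 ± 0.25 at 24 h, adjusted p = 0.068, or 0.00498 in the paired fit). STP1, a hexose carrier of the plasma membrane, was at 224 and 377 RPKM in ABA against 472 and 532 RPKM in mock at 24 h and was called in the paired fit alone (adjusted p = 0.192 without and 0.0167 with pairing). SWEET3 and SWEET16, sugar transporters, did not pass without pairing either (adjusted p = 0.127 and 0.0633 at 24 h, or 0.0149 and 0.00131 with it). Of 11 measured SWEET genes, 1 was called lower and 4 higher at 24 h (3.88% and 6.64% of all genes), with a median difference of 0.24.

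The weakly expressed DC1-domain genes AT2G21840, AT5G59930 and AT5G59940 were called lower at 8, 12 and 24 h alike, and the last 2 are neighbours on chromosome 5. AT5G59930 had 0.572 and 0.973 RPKM in ABA against 3.01 and 2.41 RPKM in mock at 24 h (-1.07 ± 0.16, adjusted p = 0.000103). Of 58 measured genes with this domain, 19 were called lower and 1 higher at 24 h, against 3.88% and 6.64% of all genes.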
